A study of Mus musculus with 6 samples.

Results

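The histone genes of the mouse were followed in RNA-seq libraries of medulloblastoma and of control cerebellum. Of 43629 genes in the deposited table, 79 are annotated as protein coding and carry a symbol that begins with Hist1h, Hist2h, Hist3h, Hist4h, H2af or H3f, and these are the genes described here. The first 4 stems mark the replication-dependent genes, which lie in the Hist1, Hist2, Hist3 and Hist4 loci and are called cluster genes below (68 genes). The other stems mark the variant histones (11 genes), most of which lie far from those loci. Another 8 rows with such symbols are listed as pseudogenes or antisense RNA and are not counted among the 79.

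The tumor group held 3 libraries of medulloblastoma from Math1-Cre SmoM2.c/wt mice, and the control group held 3 libraries of cerebellum from SmoM2.c/wt mice without the Cre. Every sample thus carried the SmoM2 allele, and all came from female C57BL/6 mice at postnatal day 35, with the controls described as littermates. SmoM2 is an active form of Smoothened, the membrane protein that turns on Hedgehog signalling, and Math1-Cre activates that allele in cells of the cerebellar granule lineage. The labels do not say that the libraries of a group are from separate mice, so each p-value reflects the spread among the 6 libraries, part or all of which may be technical. The recovered read totals ran from 44902217 to 49455221 in the control libraries and from 49969867 to 69550200 in the tumor libraries. All levels below are normalized counts, which are read counts divided by a size factor for each library, and groups are given as mean ± SD of n = 3.

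Smo, which the tumor genotype targets, was higher in the tumor libraries (4969 ± 582) than in the controls (1012 ± 41.0), as was Gli1, a transcriptional target of the pathway (4923 ± 1489 and 440.2 ± 21.1). Mki67, a marker of cycling cells, was at 188.9 ± 71.2 in the controls and at 37198 ± 2550 in the tumors. Summed levels of 7 markers of proliferating progenitors ran from 4708 to 5374 in the controls and from 150211 to 160572 in the tumors. Markers of mature granule neurons ran the other way, with summed levels of 200904 to 226474 in the controls and 17286 to 28852 in the tumors. All 6 granule markers, all 5 Purkinje cell markers and all 5 oligodendrocyte markers were called lower, and no marker list was at 0 in a group. Of the other lists, 5 of 6 microglia and 1 of 5 astrocyte markers were called higher, while 3 of 5 astrocyte, 3 of 4 endothelial, 5 of 5 choroid plexus and 5 of 5 erythroid markers were called lower. Among all genes tested, 30.6% were called higher and 31.5% lower. The mitochondrial share of values was 6.84% to 7.06% in the controls and 2.49% to 3.79% in the tumors. Cell type markers thus moved with the groups, and in bulk tissue fewer cells of a type and less RNA per cell cannot be told apart. The part of these shifts in each histone result was not tested.

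Histones are the proteins around which DNA is wound. A nucleosome core is built from H2A, H2B, H3 and H4, and the linker histone H1 binds where DNA enters and leaves it. Cluster genes are transcribed mainly in S phase, when new DNA has to be packaged, and their mRNAs usually end in a conserved stem-loop rather than in a poly(A) tail. The stem-loop is bound by SLBP and the precursor is cut just after it with help of the U7 snRNP. Variant histones are expressed through the cell cycle and in cells that no longer divide, their mRNAs are mostly polyadenylated, and several of them mark particular regions of chromatin. The library kit named in the labels' protocols, TruSeq RNA Library Prep Kit v2, is known to select poly(A) RNA. A histone mRNA that ends at its stem-loop is therefore sampled poorly by such a kit, whatever its level in the cell, and the counts of cluster genes bear on their polyadenylated or otherwise captured transcripts.

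Because the stem-loop bears on the 3' end that a transcript can have, it was searched for in the GENCODE M21 transcripts. The search required the letters of the histone stem-loop consensus, with a stem of 6 fully paired bases around a loop of 4. Histone letters were thus built into it, and other hairpins were not sought. Among 55450 transcribed genes, 64 carried such a stem-loop, and 47 of these were histone genes of the set: 46 cluster genes and the variant H2afx. Sites of 9 genes that the results turn on are printed with 5 flanking bases on each side, 5' to 3', with the stem-loop in capitals.
H2afx: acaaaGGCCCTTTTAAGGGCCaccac
Hist1h1c: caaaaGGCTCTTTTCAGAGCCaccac
Hist3h2a: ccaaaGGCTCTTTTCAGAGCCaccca
Hist1h2be: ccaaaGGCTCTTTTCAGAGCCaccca
Hist2h3c2: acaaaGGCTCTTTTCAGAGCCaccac
Hist1h1d: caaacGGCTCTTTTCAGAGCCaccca
Hist1h2bm: acaaaGGCTCTTTTCAGAGCCactaa
Hist1h3b: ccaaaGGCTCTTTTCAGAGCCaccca
Hist1h4f: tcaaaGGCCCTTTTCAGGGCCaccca
On GRCm38 the capitals lie at chr9:44335240-44335255 (H2afx, plus strand), chr13:23739512-23739527 (Hist1h1c, plus), chr11:58955172-58955187 (Hist3h2a, plus), chr13:23585531-23585546 (Hist1h2be, minus) and chr3:96238485-96238500 (Hist2h3c2, minus). They lie at chr13:23555787-23555802 (Hist1h1d, plus), chr13:21722506-21722521 (Hist1h2bm, plus), chr13:23752820-23752835 (Hist1h3b, plus) and chr13:23551291-23551306 (Hist1h4f, minus). Each site lies in the 3' UTR of its annotated transcript. The annotation stops 33 bases after the stem-loop in Hist1h4f, 46 in Hist1h2bm and 51 in Hist1h3b. The deposited span of Hist1h2bm, however, ends before its stem-loop. It runs on for 377 bases in Hist2h3c2, 822 in H2afx, 840 in Hist1h1c, 1643 in Hist3h2a, 1861 in Hist1h2be and 4884 in Hist1h1d. A transcript that runs well past the stem-loop may carry a poly(A) tail, but the annotated length does not show this, and polyadenylation was not measured.

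The sums of the 2 classes are set side by side here, and their difference was not tested. Variant genes summed to 50816 ± 2154 normalized counts in the controls and 145241 ± 12342 in the tumors, a ratio of 2.86. Cluster genes summed to 5693 ± 426 in the controls and 5117 ± 484 in the tumors, a ratio of 0.899, with tumor library 1 (5665) inside the control range of 5267 to 6118. The cluster share of all histone values was 9.66% to 10.9% in the control libraries and 3.21% to 3.52% in the tumor libraries. All 79 genes together took up 0.102% to 0.112% of all values in the controls and 0.288% to 0.320% in the tumors.

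Of the 8 variant genes with reads, 7 were called higher in the tumors and H2afj was not called. Across all 22117 genes tested, 30.6% were called higher and 31.5% lower, at an adjusted p under 0.05 (limma on log2(value + 1), Benjamini-Hochberg). The median log2 fold change of the 8 variants was 1.78, beside -0.02 for all genes tested. The remaining 3 variant genes, H2afb1, H2afb2 and H2afb3, had no read in any library. In each of the 7 higher genes every tumor library lay above every control library, which held for 33.2% of all genes tested.

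**Figure D1:**
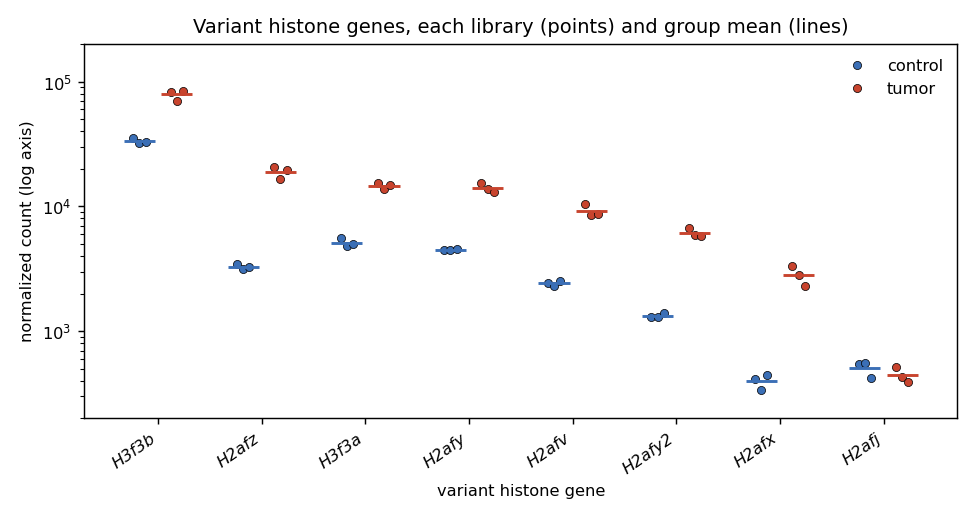
Normalized count (y, log axis) of the 8 variant histone genes with reads, for each control (blue) and tumor (red) library, with lines at the group means. The tumor points lie above the control points in 7 genes, and the points of H2afj overlap.

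H2afx encodes H2AX, the H2A variant that is phosphorylated around DNA double-strand breaks. Its control libraries were at 413.2, 340.0 and 445.9 and its tumor libraries at 3323, 2842 and 2321 normalized counts. The lowest tumor library was thus far above the highest control. The log2 fold change was 2.81 ± 0.15 (SE, adjusted p = 2.12e-07), a 7.03-fold difference and the largest among the variants tested. H2afx was also the 1 variant gene with a stem-loop, and its annotated transcript runs on past it.

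H2afz and H2afv encode the near-identical H2A.Z proteins, which are placed at promoters by remodelling complexes. H2afz stood at 3476, 3135 and 3260 in the controls and at 20535, 16491 and 19544 in the tumors, and no library of a group came near the other group. Its log2 fold change was 2.51 ± 0.10 (adjusted p = 2.67e-08). H2afv was at 2448, 2310 and 2516 in the controls and at 10468, 8583 and 8623 in the tumors, which are again separate ranges. Its log2 fold change was 1.92 ± 0.10 (adjusted p = 1.31e-07). The H2afz share of the H2afz and H2afv values was 56.4% to 58.7% in the control libraries and 65.8% to 69.4% in the tumor libraries, so the ranges of this share did not overlap. Of the 50-base windows of H2afz transcripts, 64.6% were found in no other annotated gene, so some of its reads could be shared with copies elsewhere.

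H2afy and H2afy2 encode the macroH2A proteins, which carry a large extra domain and are found on silent chromatin. H2afy was tightly placed in the controls, at 4481, 4497 and 4523, and stood at 15490, 13871 and 13013 in the tumors. Its log2 fold change was 1.65 ± 0.08 (adjusted p = 1.48e-07). H2afy2 was at 1290, 1304 and 1391 in the controls and at 6676, 5912 and 5740 in the tumors. This gave a log2 fold change of 2.20 ± 0.09 (adjusted p = 3.35e-08). In both genes all tumor libraries lay well above all controls. The H2afy2 share of the 2 genes' values was 22.3% to 23.5% in the controls and 29.9% to 30.6% in the tumors. H2afy2 overlaps Aifm2 on the other strand, and whether strand was used in counting is not stated in the labels or notes.

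H3f3a and H3f3b encode the same protein, an H3 variant that can be placed in chromatin outside S phase as well as within it. H3f3b was at 35003, 32074 and 32608 in the controls and at 82739, 69634 and 84598 in the tumors. Even the lowest tumor library was above the highest control, although the log2 fold change, 1.25 ± 0.10 (adjusted p = 3.65e-06), was the smallest among the 7 higher variants. H3f3a was at 5568, 4856 and 4984 in the controls and at 15537, 13698 and 14741 in the tumors, also without overlap. Its log2 fold change was 1.51 ± 0.09 (adjusted p = 3.03e-07). The H3f3a share of the 2 genes' values was 13.1% to 13.7% in the controls and 14.8% to 16.4% in the tumors. H3f3a overlaps H3f3aos, an antisense RNA that is not among the 79 genes, on the other strand.

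H2afj, an H2A variant that differs from the replication-dependent H2A at its C-terminal end, was at 544.9, 556.4 and 423.4 in the controls and at 517.8, 432.8 and 392.6 in the tumors. The 2 ranges overlapped. H2afj, at chr6:136808244-136810070, is also the variant that lies beside a cluster gene, Hist4h4. Its log2 fold change was -0.18 ± 0.16 (adjusted p = 0.351), and ran from -0.31 to -0.08 over the alternatives.

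Set per kilobase of annotated exons, H3f3b had the highest level among the variants in the controls (11166 ± 524 normalized counts per kb). H2afz followed at 1853 ± 97.1 and lay above H2afv (1485 ± 64.2) and H3f3a (1466 ± 108), which do not differ beyond their spread. H2afy (660.9 ± 3.10) and H2afy2 (610.7 ± 25.2) came next, and H2afx (288.8 ± 39.2) and H2afj (277.6 ± 40.2) were last and did not differ beyond their spread. In the tumors H3f3b was again first (26542 ± 2741 per kb), followed by H2afz (10618 ± 1187), H2afv (5649 ± 659) and H3f3a (4183 ± 263). H2afy2 (2809 ± 229) then stood above H2afy (2074 ± 185) and H2afx (2044 ± 362), and H2afj was last (244.5 ± 34.9). The order of H2afy and H2afy2 was thus reversed between the groups, and H2afx moved from beside H2afj to beside H2afy.

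Cluster genes were counted at low levels. Of the 68, 60 had a read in at least 1 library and 48 passed the filter of a value over 1 in at least 3 libraries. Of these 48, 15 were called higher, 3 lower and 30 were not called, beside the 30.6% and 31.5% called among all genes tested. The higher share is close to that background, which is also the measure for the counts by family, block and 3' end below. Another 5 tested genes were not called although every tumor library lay above every control, a separation found in 33.2% of all genes tested. Of the 15 higher genes, 6 passed the filter through the tumor libraries alone and so had to differ. The 6 are Hist1h2ag, Hist1h2bf, Hist1h2bl, Hist1h3e, Hist1h4f and Hist1h4n, and their p-values are no support for a difference. The other 9 had a value over 1 in at least 1 control library as well. In Hist1h2bm, Hist1h2bh and Hist1h3b this was 1 control read. These genes thus also depended on the tumor libraries to pass, and their p-values are no support either. The median log2 fold change of the 48 was 0.94. It was 0.73 when genes without a control read are set at the bound that a floor of 3 counts per library allows. Of the 6 such genes, 2 do not exceed that floor, and these kept their log2 fold change in this median. The values ran from -1.73 to 3.70.

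**Figure D2:**
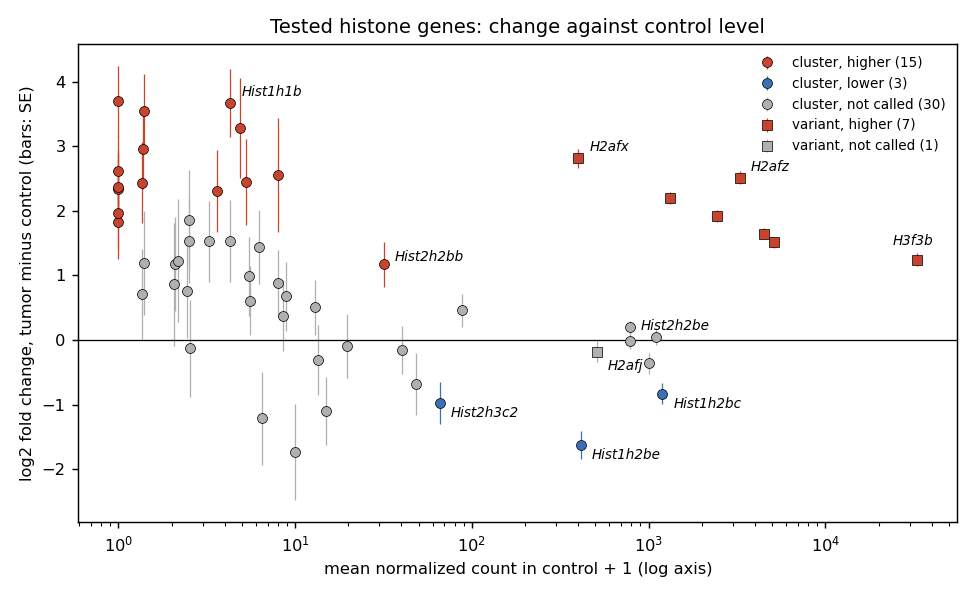
Log2 fold change, tumor minus control (y, bars are SE), against the control mean plus 1 (x, log axis) of the 56 histone genes tested, as circles (cluster) and squares (variant) coloured by call. The higher cluster genes lie at control means of 30.7 or less, the 6 cluster genes over 100 lie between -1.63 and 0.20, and 7 of 8 variants lie above 1.

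Calls of cluster genes went with their control level, which is itself part of the contrast, so the grouping is a description. The 6 cluster genes with a control mean of at least 100 normalized counts were Hist1h2bc, Hist3h2a, Hist1h1c, Hist3h2ba, Hist2h2be and Hist1h2be. They held 92.2% to 92.9% of all cluster values in the control libraries and 84.3% to 87.9% in the tumor libraries. Of these 6, 2 were called lower and 4 were not called, and their median log2 fold change was -0.19. With reads scaled to library totals, Hist3h2ba was called higher as well. Their sum was 5274 ± 411 in the controls and 4414 ± 490 in the tumors, a ratio of 0.837. The other 62 genes summed to 418.7 ± 19.2 and 702.9 ± 64.4, a ratio of 1.68, and each tumor library lay above each control.

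**Figure D3:**
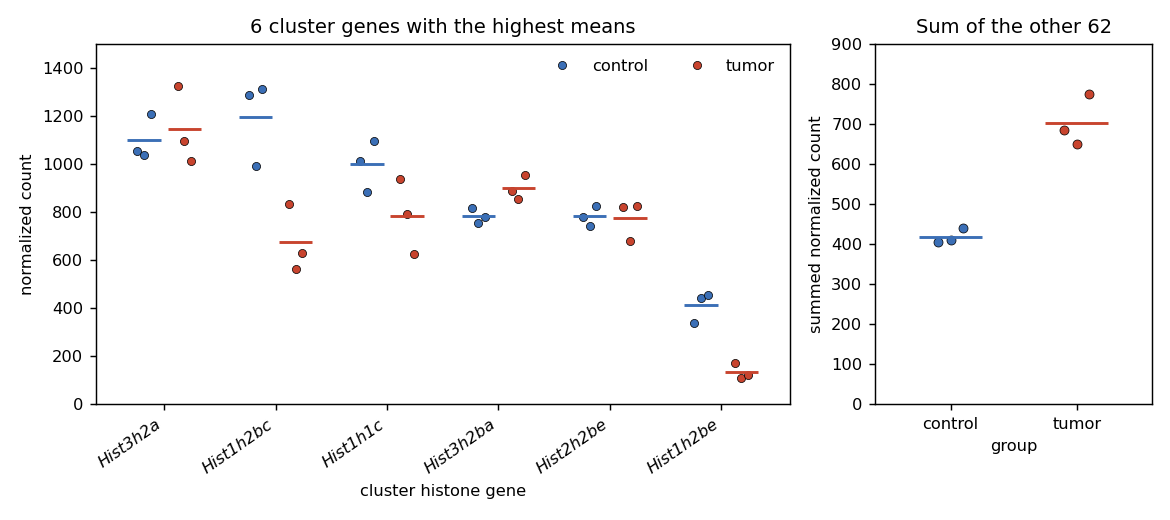
Normalized count (y) of the 6 cluster genes with the highest means for each control (blue) and tumor (red) library, with lines at the means, and the sum of the other 62 genes. Tumor points of Hist1h2bc and Hist1h2be lie below all control points, while the sum of the other 62 lies above them.

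Linker histones of the cluster numbered 6, of which 5 were tested. Of these, 3 were called higher and 2 were not called. Hist1h1c, which encodes H1.2 and is also known to give polyadenylated transcripts in differentiated cells, was at 1014, 885.8 and 1096 in the controls and at 936.6, 790.9 and 623.8 in the tumors. The ranges overlapped, and the log2 fold change of -0.36 ± 0.16 did not pass the threshold (adjusted p = 0.0676). It did pass with upper-quartile scaling and without tumor library 1. Hist1h1e, which encodes H1.4, was at 33.5, 52.3 and 32.1 in the controls and at 44.8, 23.6 and 38.4 in the tumors, and its log2 fold change was -0.15 ± 0.38 (adjusted p = 0.748).

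Hist1h1b, Hist1h1d and Hist1h1a encode H1.5, H1.3 and H1.1. Hist1h1b was at 4.47, 1.19 and 4.28 in the controls and at 73.7, 32.1 and 51.2 in the tumors, which rests on 9 control reads and 188 tumor reads. The groups were far apart, and the log2 fold change was 3.67 ± 0.53 (SE, adjusted p = 0.000189). Hist1h1d was at 0, 9.51 and 2.14 in the controls and at 28.2, 25.5 and 38.4 in the tumors (log2 fold change 3.28 ± 0.77, adjusted p = 0.00420). Hist1h1a was at 14.5, 0 and 6.42 in the controls and at 21.7, 25.5 and 38.4 in the tumors. Its groups did not overlap, and its log2 fold change was 2.56 ± 0.88 (adjusted p = 0.0287). The call of Hist1h1a was lost on leaving out any 1 tumor library. The sixth gene, Hist1h1t, the testis linker histone, had no read. H1 genes outside the set, named differently, were followed as well. H1f0, the linker histone of differentiated cells, was at 15972 ± 508 in the controls and 37187 ± 1730 in the tumors (log2 fold change 1.22 ± 0.08). H1fx was at 46.0 ± 13.0 and 633.9 ± 177 (3.76 ± 0.28).

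Few replication-dependent H2A genes could be tested. Of 19 genes, 9 were tested, 1 was called higher and 8 were not called. Hist3h2a was at 1054, 1037 and 1207 in the controls and at 1325, 1096 and 1011 in the tumors, ranges that overlap. Its log2 fold change was 0.05 ± 0.12 (adjusted p = 0.740), and turned to -0.046 with upper-quartile scaling. Hist3h2a shares part of its span with Trim17 on the same strand. The 1 higher gene, Hist1h2ag, had 0 control reads and 19 tumor reads, with tumor values of 7.22, 4.72 and 3.94. These were at least 1.57-fold higher when the controls are set to 3 counts each (adjusted p = 0.00222). Hist1h2ag passed the filter through the tumors alone, so this p-value is no support. Hist1h2ad had the lowest log2 fold change of the family, -1.73 ± 0.75, on 24 and 10 reads (adjusted p = 0.0692). Hist2h2ab (21 control and 49 tumor reads) and Hist1h2ah (3 and 15) were not called, with adjusted p of 0.301 and 0.185. Hist2h2aa1 was at 1.12, 3.57 and 11.8 in the controls and at 0.722, 1.89 and 0.984 in the tumors, and its transcript holds no 50-base window that is absent from other genes, since Hist2h2aa2 is its near-identical copy.

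H2B genes had the largest summed count among the cluster families and moved in both directions. Of 18 genes, 15 were tested, 6 were called higher and 2 lower. Hist1h2bc was at 1288, 990.4 and 1311 in the controls and at 834.8, 565.1 and 628.7 in the tumors. All tumor libraries were below all controls, which held for 34.5% of all genes tested. The log2 fold change was -0.83 ± 0.17 (adjusted p = 0.00165), and no stem-loop was found in its annotated transcripts. Hist1h2be was at 338.4, 443.5 and 455.5 in the controls and at 172.6, 107.7 and 123.0 in the tumors. No tumor value reached the control range, and the log2 fold change was -1.63 ± 0.22 (adjusted p = 0.000113). In GENCODE M21 the start of the Hist1h2be span overlaps the 3' end of Hist1h1e on the same strand, while the deposited spans of the pair do not overlap. Both genes stayed lower under all 15 alternatives.

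Hist2h2be and Hist3h2ba were among the cluster genes with most reads and were not called. Hist2h2be, which in mouse olfactory neurons encodes a replacement H2B, was at 779.4, 743.1 and 827.6 in the controls and at 823.3, 681.3 and 826.4 in the tumors. The groups overlapped, and the log2 fold change was -0.02 ± 0.12 (adjusted p = 0.916). Hist3h2ba was at 816.3, 756.2 and 780.6 in the controls and at 886.8, 856.2 and 953.3 in the tumors. Its tumor libraries lay above its controls, but the difference was small, the log2 fold change being 0.20 ± 0.10 (adjusted p = 0.122).

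Of the 6 higher H2B genes, the 3 with the highest log2 fold changes were Hist1h2bm, Hist1h2bb and Hist1h2bh. Hist1h2bm had 1 read in the controls and 49 in the tumors, at 10.1, 16.1 and 17.7 normalized counts, a ratio of 37.8 with a 95% exact counting interval of 6.48 to 1525 (adjusted p = 0.000371). Hist1h2bb was at 1.12, 9.51 and 2.14 in the controls and at 13.0, 22.7 and 33.5 in the tumors. It showed a log2 fold change of 2.45 ± 0.67 (adjusted p = 0.00932), with all tumor libraries above the controls. Hist1h2bh had 1 and 23 reads, a ratio of 17.8 with an interval of 2.88 to 732 (adjusted p = 0.00687). Hist1h2bm and Hist1h2bh, with 1 control read each, depended on the tumor libraries to pass the filter, so their p-values are no support. Hist1h2bl rose from 0 reads to 15, at least 1.24-fold, and Hist1h2bf from 0 reads to 10, which does not exceed the floor. These intervals and floors cover counting error only. The row named Hist2h2bb was at 22.3, 35.7 and 34.2 in the controls and at 53.4, 63.3 and 97.4 in the tumors (log2 fold change 1.17 ± 0.35, adjusted p = 0.0153). Its identifier belongs in GENCODE M21 to Gm42743, a noncoding gene that overlaps Hist2h2bb, so these reads cannot be assigned to Hist2h2bb. This call was lost without control library 1.

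Replication-dependent H3 genes had the smallest summed count. Of 12 genes, 7 were tested, 2 were called higher and 1 lower. Hist2h3c2 was at 74.8, 53.5 and 67.4 in the controls and at 36.1, 39.7 and 23.6 in the tumors. All tumor libraries were below the controls (log2 fold change -0.98 ± 0.33, adjusted p = 0.0255). Of its 50-base windows, 36.5% were absent from other genes, and the call was lost without control library 1, without control library 3 or without tumor library 3. Hist1h3b had 1 control read and 32 tumor reads, at 5.06, 9.45 and 14.8, a ratio of 24.7 with an interval of 4.13 to 1006 (adjusted p = 0.00202). With 1 control read, Hist1h3b depended on the tumor libraries to pass the filter, so this p-value is no support. Hist1h3e had 0 control reads and 15 tumor reads, at least 1.30-fold higher (adjusted p = 0.00485). This gene passed the filter through the tumors alone, so its p-value is no support. Hist1h3d, the gene with most reads after Hist2h3c2, had 32 and 60 reads and a log2 fold change of 0.50 ± 0.42 (adjusted p = 0.329). Hist1h3h had 1 and 10 reads and was not called (adjusted p = 0.226).

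All 13 replication-dependent H4 genes had a read, and 12 were tested. Of these, 3 were called higher and 9 were not called. Hist1h4i was at 71.5, 99.9 and 88.7 in the controls and at 144.4, 96.4 and 119.0 in the tumors, which overlap (log2 fold change 0.46 ± 0.25, adjusted p = 0.142). Hist2h4 was at 58.1, 20.2 and 63.1 in the controls and at 28.2, 18.9 and 32.5 in the tumors, where control library 2 lay within the tumor range (-0.68 ± 0.48, adjusted p = 0.241). Hist1h4j had 37 and 22 reads and a log2 fold change of -1.10 ± 0.53 (adjusted p = 0.0989). Among the higher genes, Hist1h4f had 0 control reads and 43 tumor reads, at 10.1, 8.50 and 19.7 normalized counts. It was at least 3.78-fold higher, with an adjusted p of 0.000237. That p-value is no support, since Hist1h4f passed the filter through the tumors alone. Hist1h4d was at 4.47, 1.19 and 2.14 in the controls and at 6.50, 23.6 and 23.6 in the tumors (2.31 ± 0.63, adjusted p = 0.00966). Hist1h4n had 0 and 9 reads, which does not exceed the floor of 3 counts per library. Hist1h4b was at 0, 2.38 and 2.14 in the controls and at 10.1, 14.2 and 1.97 in the tumors and was not called (adjusted p = 0.0611).

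Summed by protein, the cluster genes had tumor to control ratios from 0.822 (H2B) to 1.37 (H4). H1 genes summed to 1052 ± 96.9 in the controls and 930.9 ± 160 in the tumors. For H2A the sums were 1143 ± 89.9 and 1199 ± 163, and for H3 they were 79.7 ± 12.4 and 84.5 ± 19.8. In all 3 the ranges of the groups overlapped. H2B summed to 3245 ± 224 and 2665 ± 247, with every tumor library (2385 to 2850) below every control (3007 to 3452). H4 summed to 173.8 ± 17.4 and 237.6 ± 17.5, with every tumor library (217.3 to 248.4) above every control (158.1 to 192.5).

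A total of 11 genes had no read in any library. They are Hist1h1t, Hist1h2aa, Hist1h2ao, Hist1h2ap, Hist1h2bq, Hist1h2br, Hist2h2aa2, Hist2h3c1, H2afb1, H2afb2 and H2afb3. In 5 of them at least 50% of 50-base windows were absent from other genes, and there a count of 0 allows up to 2.17 to 3.57 normalized counts, depending on the library. In the other 6, namely Hist1h2ao, Hist1h2ap, Hist1h2bq, Hist1h2br, Hist2h2aa2 and Hist2h3c1, the share was 0% to 11.3%, and a count of 0 sets no limit because the counting of multiply mapped reads is not known. Near-identical copies bear on the cluster genes with reads too. In 34 of the 68, under 50% of 50-base windows were absent from other genes, and 20 of these were tested, with 6 called higher and 1 lower. In the other 34, 28 were tested, with 9 called higher and 2 lower, beside 30.6% higher and 31.5% lower among all genes tested.

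Higher genes occurred in each main block of the largest locus. Hist1 lies on chromosome 13 and holds 55 of the cluster genes, of which 39 were tested, with 14 called higher and 2 lower. Its main blocks, parted by gaps of over 100 kb, are chr13:21715763-21837530 with 18 genes, chr13:22035164-22043676 with 5 and chr13:23531050-23764358 with 29. In these, 4 of 11, 1 of 5 and 9 of 23 tested genes were called higher, beside 30.6% higher and 31.5% lower among all genes tested. Both lower genes of Hist1, Hist1h2bc and Hist1h2be, lie in the third block among higher ones. Hist2, at chr3:96219865-96279001, had 6 tested genes with 1 lower call, Hist2h3c2, and 1 higher call, which is the row named Hist2h2bb that cannot be assigned to that gene. Neither gene of Hist3, at chr11:58948920-58956830, was called, and nor was Hist4h4 on chromosome 6 (log2 fold change 0.87 ± 0.95, on 3 and 12 reads).

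**Figure D4:**
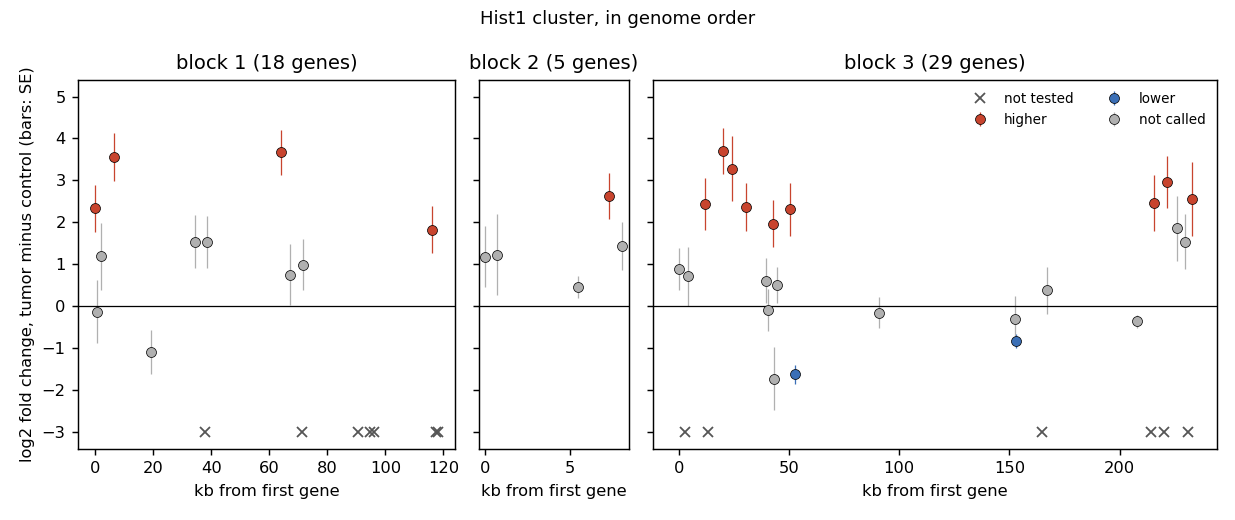
Log2 fold change, tumor minus control (y, bars are SE), of the genes of the 3 main Hist1 blocks against the distance in kb from the first gene of each block (x), coloured by call, with crosses for genes not tested. Higher genes occur in all 3 blocks, and the 2 lower genes stand in block 3.

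The annotated 3' end was set beside the calls. A stem-loop followed by at most 100 annotated bases was found in 23 cluster genes, and their control means did not exceed 9.01 normalized counts. Of these, 15 were tested, 7 were called higher and 8 were not called, with 4 of the 7 passing the filter through the tumors alone. Hist1h2bm and Hist1h3b, also among the 7, had 1 control read each and depended on the tumor libraries to pass. A longer run after the stem-loop was found in 23 genes, with control means up to 1099, of which 20 were tested, with 4 called higher and 2 lower. No stem-loop was matched in 22 genes, of which 13 were tested, with 4 called higher and 1 lower. The longest annotated transcript is only 381 bases in Hist1h2bl and 312 in Hist1h4k, both in this group. Such short annotation may stop before a stem-loop, so no match does not mean that a gene lacks one. Over all genes tested, 30.6% were called higher and 31.5% lower. The median log2 fold changes of the 3 groups of cluster genes were 1.82 (1.44 with bounds), 0.29 and 1.18 (1.17 with bounds). In the short-end group, 2 of 4 genes without a control read do not exceed the floor and kept their log2 fold change. At control means of 9.01 or less, 4 of 8 tested genes with a longer run were called higher, beside 7 of the 15 tested genes with a short end. The difference was not tested. The deposited spans of several genes are shorter than the M21 transcripts, so reads past the stem-loop were not always counted. Of the 4 higher genes with a longer run, the deposited span of Hist1h1d ends 28 bases after the stem-loop, that of Hist1h4d 25 bases after it, and that of Hist1h2bh before it. Of these 4, only Hist1h3e, with 369 bases, was counted over its longer end.

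**Figure D5:**
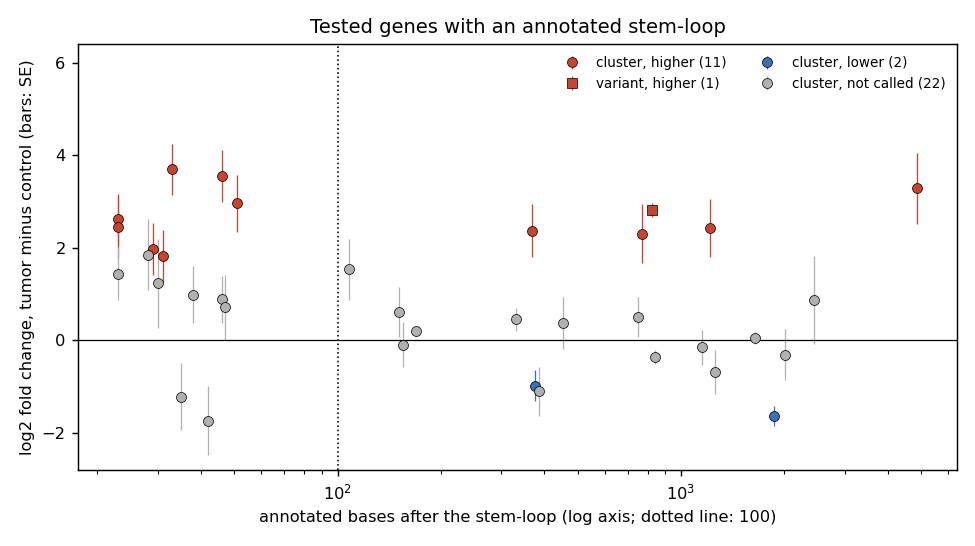
Log2 fold change, tumor minus control (y, bars are SE), against the annotated bases after the stem-loop (x, log axis) of tested genes with a stem-loop, with a dotted line at 100 bases. Left of the line 7 cluster genes are higher, and right of it 4 cluster genes and H2afx are higher and 2 cluster genes lower.

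Promoters were compared because cluster genes of a family are known to share promoter elements. RefSeq windows of 300 bases (GRCm38.p6, 250 before to 50 after the annotated start) were matched for 72 of the 79 genes. Of these windows, 20 overlap that of another gene of the set, in 10 divergent H2A and H2B pairs, so they are not independent. Short motifs were searched on both strands, and each match is printed in capitals. The windows of 2 higher variants, of the variant not called and of 2 higher cluster genes follow.
H2afz: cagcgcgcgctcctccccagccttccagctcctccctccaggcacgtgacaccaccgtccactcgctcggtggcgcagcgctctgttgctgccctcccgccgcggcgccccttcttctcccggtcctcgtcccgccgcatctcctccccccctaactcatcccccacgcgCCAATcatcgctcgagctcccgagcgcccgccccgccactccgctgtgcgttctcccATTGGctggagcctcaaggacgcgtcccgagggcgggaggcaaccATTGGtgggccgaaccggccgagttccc
H3f3b: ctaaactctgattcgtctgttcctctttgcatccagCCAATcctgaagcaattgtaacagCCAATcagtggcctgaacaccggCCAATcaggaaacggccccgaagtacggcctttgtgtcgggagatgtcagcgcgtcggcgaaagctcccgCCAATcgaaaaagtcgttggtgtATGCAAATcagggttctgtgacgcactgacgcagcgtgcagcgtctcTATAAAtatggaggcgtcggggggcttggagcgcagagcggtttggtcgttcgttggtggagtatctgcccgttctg
H2afj: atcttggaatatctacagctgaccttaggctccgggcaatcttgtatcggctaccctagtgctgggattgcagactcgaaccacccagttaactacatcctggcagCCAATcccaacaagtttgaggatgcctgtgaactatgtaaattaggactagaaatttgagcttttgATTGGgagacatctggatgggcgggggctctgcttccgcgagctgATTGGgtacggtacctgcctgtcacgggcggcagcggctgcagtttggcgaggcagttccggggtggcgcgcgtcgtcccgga
Hist1h1b: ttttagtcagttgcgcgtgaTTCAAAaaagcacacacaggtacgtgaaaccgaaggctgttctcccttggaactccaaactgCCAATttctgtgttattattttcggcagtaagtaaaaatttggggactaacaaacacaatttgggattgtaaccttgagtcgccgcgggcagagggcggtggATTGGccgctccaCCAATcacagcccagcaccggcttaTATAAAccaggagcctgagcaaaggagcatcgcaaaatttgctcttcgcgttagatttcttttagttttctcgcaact
Hist1h2bm: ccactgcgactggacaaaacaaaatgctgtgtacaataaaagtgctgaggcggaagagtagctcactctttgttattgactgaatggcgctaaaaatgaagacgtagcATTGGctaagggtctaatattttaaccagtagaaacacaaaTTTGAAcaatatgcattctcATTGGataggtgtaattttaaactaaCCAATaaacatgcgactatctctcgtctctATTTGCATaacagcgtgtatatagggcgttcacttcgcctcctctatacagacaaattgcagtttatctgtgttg
They lie at chr3:137864237-137864536 (plus strand), chr11:116024455-116024754 (minus), chr6:136807998-136808297 (plus), chr13:21780576-21780875 (minus) and chr13:21721794-21722093 (plus). H2afz and H2afj each hold 3 CCAAT boxes, although H2afz was called higher and H2afj was not. H3f3b holds 4 CCAAT boxes, a TATA box and an octamer. Hist1h1b and Hist1h2bm hold 3 CCAAT boxes each, the first with a TATA box and the second with an octamer, and both with a match to TTTGAA.

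The CCAAT box (CCAAT) was found in 37.9% of all 27025 RefSeq promoter windows, in 53 of 62 cluster windows and in 8 of 10 variant windows. Among H4 genes 3 of 12 held it, while every H1, H2A, H2B and H3 window did. The TATA box (TATAAA) was found in 14.2% of all windows, in 35 of 62 cluster windows and in 1 of 10 variant windows, that of H3f3b. The octamer (ATGCAAAT), known as the site of OCT factors in H2B promoters, was found in 1.75% of all windows and in 13 of 62 cluster windows, which are 7 H2A and 6 H2B genes. The cell cycle motif TTTGAA was found in 18.1% of all windows, in 29 cluster windows and in 3 variant windows, and no motif searched contains another, although matches can overlap at their ends. Of 3 E2F motifs, TTTCGCGC was found in 0.318% of all windows and in 9 cluster windows, TTTCCCGC in 1.11% and in 1, and TTTGGCGC in 0.537% and in 0. A match is a description of the letters and not evidence of binding.

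The genes that make, finish and place histones were followed from lists. Of 18 genes for transcription and 3' end formation of histone mRNA, 14 were called higher, 1 lower and 3 were not called, beside 30.6% higher and 31.5% lower among all genes tested. Their median log2 fold change was 0.99. E2f1, a factor that drives S-phase genes, was at 196.2 ± 20.8 in the controls and 4014 ± 748 in the tumors (log2 fold change 4.34 ± 0.15). Cdk2, the kinase that activates the histone locus factor NPAT, was at 193.7 ± 20.9 and 2811 ± 238 (3.85 ± 0.12). Slbp, which encodes the stem-loop binding protein, was at 1863 ± 81.0 and 5134 ± 305 (1.46 ± 0.08), and Npat at 2486 ± 91.8 and 3468 ± 228 (0.48 ± 0.08). Cpsf3, the nuclease that cuts the mRNA, was at 3763 ± 210 and 5029 ± 486 (0.42 ± 0.09). Lsm11, a subunit of the U7 snRNP, was the 1 gene called lower, at 4676 ± 83.7 and 1679 ± 61.3 (-1.48 ± 0.08). The other U7 subunit listed, Lsm10, was called higher, at 237.2 ± 48.9 and 535.7 ± 54.8.

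Among 37 genes for histone chaperones and deposition, 29 were called higher, 3 lower and 5 were not called, with a median log2 fold change of 1.25. The shares over all genes tested were 30.6% higher and 31.5% lower. Chaf1b, a subunit of the assembly factor CAF-1 that loads new H3 and H4 behind the replication fork, was at 24.2 ± 4.58 in the controls and 2550 ± 61.5 in the tumors (log2 fold change 6.68 ± 0.18). Nasp, a chaperone that holds soluble H3 and H4, was at 2727 ± 144 and 26447 ± 1018 (3.28 ± 0.08). The 3 genes called lower were Nap1l3, Nap1l5 and Nap1l2, members of the nucleosome assembly protein family that are known from neurons. Nap1l3 was at 4477 ± 162 and 615.8 ± 241 (-2.93 ± 0.21), Nap1l5 at 27515 ± 627 and 4294 ± 1102 (-2.71 ± 0.15). Their fall runs beside that of the granule neuron markers given above, and the part of cell composition in it was not tested. Cenpa, the centromeric H3 variant that the symbol rule leaves out, was at 57.4 ± 13.8 and 3995 ± 433 (6.12 ± 0.18). Of the other histones outside the rule, H1foo, H1fnt and Hils1 had no read.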

How the data were processed

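RNA for 3 libraries of control cerebellum and 3 of tumor was isolated by TRIzol and a column step and turned into TruSeq libraries, per the labels' protocols. Among the tools, featureCounts, edgeR, FastQC and Bowtie2 2.2.4 are listed with the build mm10 and without roles, per the submitters' processing notes. The annotation release and the use of strand or of multiply mapped reads are not given in the sources at hand. The authors' deposited table gives a signal per gene and library, which from the values is a read count divided by a size factor for each library (0.841 to 1.38). All values (100%) were whole reads to within 1e-06, and 26574 genes had a read. A floor of 3 counts equals 2.17 to 3.57 normalized counts.

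The 22117 genes whose value exceeded 1 in 3 or more libraries were tested with limma 3.58.1 in R 4.3.3 on log2(value + 1) with a mean-variance trend, two-sided, with Benjamini-Hochberg adjustment over all of them. This scale understates changes of low counts. Alternatives were edgeR 4.0.16 and DESeq2 1.42.0 on the recovered reads, other pseudocounts, filters and scalings, a replicate block, and each library left out. Pairs of libraries of a group differed by more than sampling noise, and the script was tested on simulated data. Replicate numbers did not pair libraries across groups.

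Stem-loops, exon lengths, overlaps and unique 50-base windows came from GENCODE M21 (GRCm38, the same assembly as mm10), with 77 genes matched by identifier and 2 by symbol. Promoters came from RefSeq. The members and lists were chosen with earlier results of these data known. Named genes are all variants. In each cluster family they are the gene with the highest mean, the 3 largest and 2 smallest log2 fold changes and all lower calls. From each list they are the called genes at both extremes. 1 item that this rule names is not reported here. Slbp, Npat, Lsm10, Nasp, Nap1l2 and the cluster genes named beyond this rule were chosen after their values were seen.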

Additional observations from a re-analysis of the deposited data

How the results depend on the processing

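The 7 higher variant genes were called higher under all 15 alternatives, and H2afj under none of them. Among cluster genes, 15 were called higher and 3 lower with the settings of the report. With a filter of over 1 CPM in 3 libraries 1 was called higher, because 14 of the 15 were no longer tested. The gene left was the row named Hist2h2bb, whose reads cannot be assigned to that gene. The median log2 fold change of tested cluster genes, 0.94, rested on low counts. It was -0.016 with that filter, 0.52 with a pseudocount of 5, 0.86 without a filter beyond 1 read, 1.09 with a pseudocount of 0.5, 1.02 with library totals, 1.38 with edgeR and 1.40 with DESeq2. Leaving out each library in turn gave 0.72 to 1.01, with 15 to 16 higher and 2 to 4 lower calls. DESeq2 called 13 of the 15 and gave no adjusted p for Hist1h2bf and Hist1h4n. Of single genes, Hist3h2a turned to -0.046 with upper-quartile scaling and ran from -0.059 to 0.14 on leaving out libraries, while Hist1h1e ran from -0.34 to 0.11, with 0.068 without control replicate 2 and 0.11 without tumor replicate 2, none of them called. The cause was not tested.

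Same-numbered libraries did not deviate together (correlations of 0.022, -0.051 and -0.0073), so the numbers were not taken as pairs. With the replicate block, 15 cluster genes were called higher and 3 lower, and 7 variant genes higher, each the same genes as without it. Depth limits the cluster genes, since 42 of the 68 had under 10 control reads in all.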

Other observations

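Rows that carry histone symbols but are listed as pseudogenes or antisense RNA were left out of the 79 genes. H3f3aos, the antisense RNA that overlaps H3f3a, was at 52.5, 53.5 and 51.3 normalized counts in the controls and at 118, 118 and 153 in the tumors. The processed pseudogene H3f3a-ps1 was at 40.2, 21.4 and 23.5 in the controls and at 108, 85.0 and 71.8 in the tumors. H3f3a-ps2 was at 4.47, 8.32 and 7.48 in the controls and at 17.3, 21.7 and 19.7 in the tumors. H3f3c, also listed as a processed pseudogene, was at 5.58, 4.76 and 7.48 and at 17.3, 17.0 and 14.8. In these 4 rows every tumor library lay above every control library, as in H3f3a itself and in 33.2% of all genes tested. Reads of H3f3a and of these copies can be shared, and how shared reads were counted is not stated in the labels or notes. Hist3h2bb-ps, a processed pseudogene, was at 4.47, 4.76 and 20.3 in the controls and at 10.8, 3.78 and 33.5 in the tumors, which overlap. The groups overlapped in the remaining rows, Hist1h2aj, H2af-ps and H2afy3, as well, each on few reads.

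Outside the 79 genes, 17 other genes of GENCODE M21 carry the stem-loop.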
